A study of Mus musculus with 12 samples.

Results

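The Z-disc genes described here are 10 genes, *Actn2*, *Actn3*, *Myoz1*, *Myoz2*, *Myoz3*, *Tcap*, *Ldb3*, *Csrp3*, *Ankrd2*, and *Synpo2l*, taken by name from the 55536 genes of the raw count table. They were measured by RNA-seq in C2C12GFP cells, a clonal mouse myoblast line carrying green fluorescent protein, grown and differentiated toward myotubes on uncoated plastic (control) or on plastic coated with Collagen I, fibronectin, or Geltrex™, a basement membrane extract. All 4 groups used this same line, are labelled by the coating, and had 3 samples each. The day of differentiation at which RNA was taken is not given in the sources used here, and whether the samples of a group were separate cultures is not stated, so p-values measure the spread between these samples, which may be technical. Of the 10 genes, 9 passed the filter on low counts and were among the 14499 genes tested. *Myoz3* had between 0 and 5 counts per sample and was not tested, and *Myoz1* passed only through its levels in the control and on Collagen I. A gene kept in this way had to be lower on fibronectin and Geltrex™, so the counts and medians of comparisons with those coatings are given over the other 8 genes, and *Myoz1* is described by its counts.

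The Z-disc is the protein lattice at each end of the sarcomere, where actin filaments of opposite polarity are crosslinked and titin is anchored. The α-actinins form the crosslinks, the myozenins (calsarcins) tie α-actinin to the phosphatase calcineurin, and telethonin, the product of *Tcap*, caps the end of titin. LDB3 (ZASP or Cypher), muscle LIM protein (*Csrp3*), ANKRD2, and SYNPO2L are adaptors that bind these proteins, and several of them are also known as sensors of stretch that shuttle to the nucleus.

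Each sample had a total of 22520404 to 27351766 counts. Levels are given as CPM, counts scaled to the library size with TMM factors, and summarized as the mean ± SD of 3 samples, and CPM per kb of exon is used wherever different genes are compared. Replicates of each group differed by more than sampling noise, with a chi-square per degree of freedom of 2.15 to 4.39 between the Geltrex™ samples and of 7.49 to 62.9 within the other groups. The labelled cell type was checked with marker lists, which were chosen with earlier results of these data known. All 5 adipocyte markers and all 5 endothelial markers lay below 1 CPM in every sample, as did 4 of 5 leukocyte markers and 5 of 6 cardiac markers, the exception among the latter being *Myl4*, which embryonic skeletal muscle also expresses. The summed level of 12 markers of differentiated muscle cells was 7818 to 8707 CPM in the control and 8168 to 8766 CPM on Collagen I, against 2521 to 2932 CPM on fibronectin and 3521 to 3805 CPM on Geltrex™. The summed level of 13 genes of undifferentiated or cycling cells, 9 of them cell cycle genes, was 264 to 301 CPM in the control, 211 to 235 CPM on Collagen I, 668 to 851 CPM on fibronectin, and 707 to 762 CPM on Geltrex™.

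The Z-disc genes were lower on fibronectin and on Geltrex™ than in the control. A gene is called if its p from edgeR's quasi-likelihood F test, adjusted over the whole table by Benjamini and Hochberg's procedure, is at most 0.05, and it is a DEG if its fold change is also at least 2. On fibronectin, all 8 tested genes other than *Myoz1* were lower than in the control, where 14.7% of all genes tested were called lower, and 7 of the 8 were DEGs, where 4.23% of all genes were DEGs in that direction. On Geltrex™, all 8 were again called lower, against a background of 16.6%, and 5 were DEGs, against 4.99%. In both comparisons the 3 coated samples of each of the 8 genes lay below the 3 control samples, a separation that 20.3% of all genes showed on fibronectin and 25.1% on Geltrex™. The median log2 fold change of the 8 genes was -1.79 on fibronectin and -1.73 on Geltrex™, beside medians of -0.02 and -0.01 over all genes. Both comparisons use the same control samples, and the Z-disc genes and the lists were chosen with earlier results of these data known. The muscle marker lists moved in the same samples. All 11 tested markers of differentiated muscle cells were called lower, with medians of -2.00 on fibronectin and -1.53 on Geltrex™, from *Actc1* (-2.78) to *Chrna1* (-0.68) on fibronectin and from *Cav3* (-1.80) to *Chrna1* (-0.63) on Geltrex™. All 9 cell cycle genes were called higher on each coating, up to *Ccnb1* (1.80) on fibronectin and *Mki67* (1.86) on Geltrex™, with medians of 1.57 and 1.62. Of all genes tested, 17.1% were called higher on fibronectin and 16.4% on Geltrex™. The 4 markers of undifferentiated myoblasts, *Pax7*, *Myf5*, *Id1*, and *Id3*, were not called on either, with log2 differences of -0.19 (*Pax7*) to 0.08 on fibronectin and -1.35 (*Pax7*) to 0.30 on Geltrex™. *Pax7* lay below 1 CPM in every sample, and its difference on Geltrex™ had an SE of 0.51 and an adjusted p of 0.0533. The part of these lists in the Z-disc differences was not tested. In bulk RNA, fewer differentiated cells and less of these transcripts per cell cannot be told apart.

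**Figure D1:**
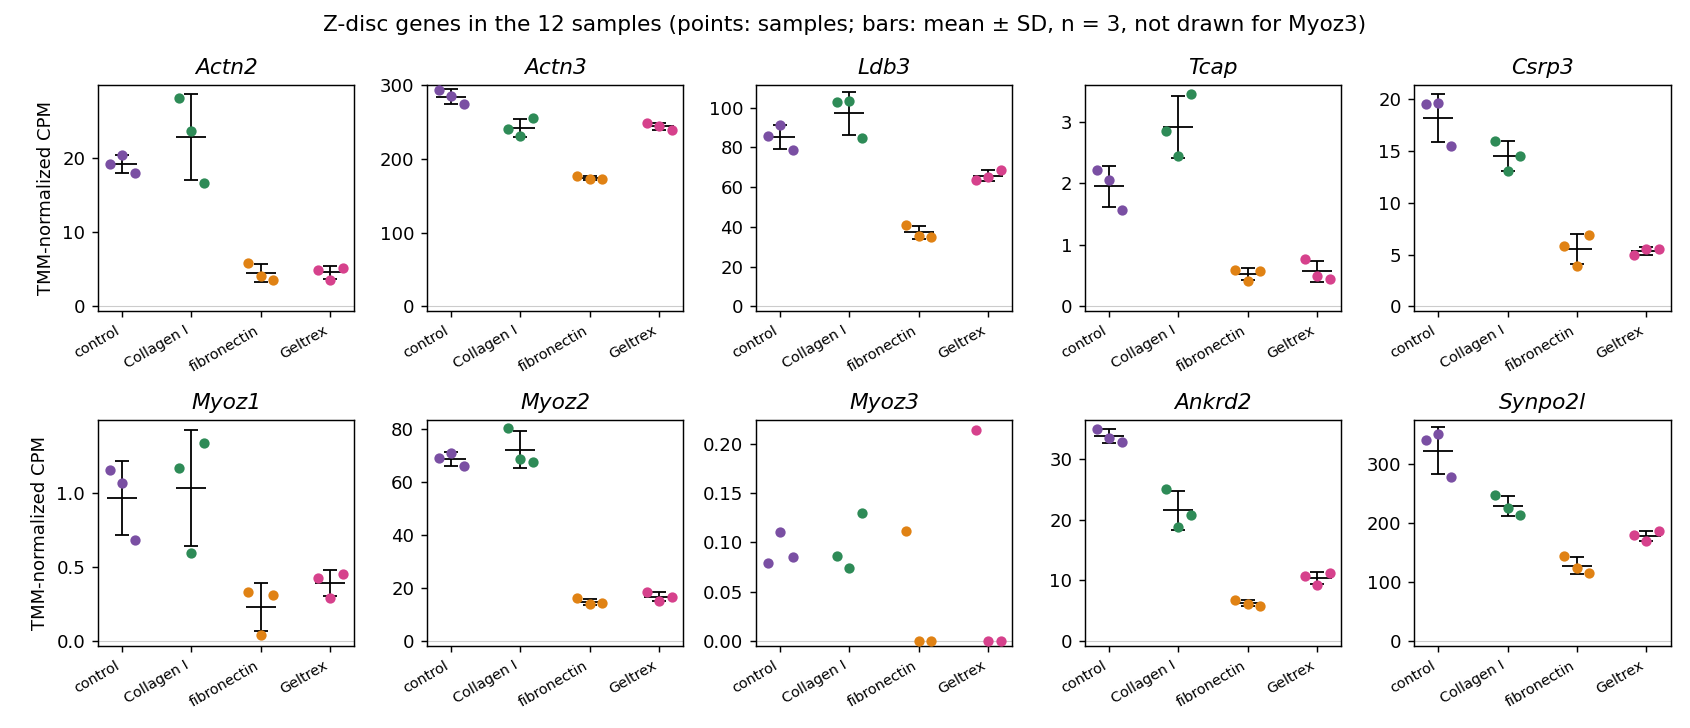
TMM-normalized CPM (linear vertical axes, one panel for each Z-disc gene) in the 12 samples by coating, with points for samples and bars for the mean ± SD of 3 samples, not drawn for Myoz3, which had at most 5 counts in any sample. Actn2 and Myoz2 fell on fibronectin and Geltrex™ to similar levels, while Actn3, Ldb3, Ankrd2, and Synpo2l were lower on fibronectin than on Geltrex™.

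The α-actinins, the crosslinkers, changed to different extents. *Actn2* (chr13:12269426-12340760, minus strand, GRCm38) encodes the isoform found in all fiber types, and *Actn3* (chr19:4861216-4877909, minus strand) the isoform of fast fibers. *Actn2* was at 19.2, 20.4, and 17.9 CPM in the control samples and at 28.1, 23.6, and 16.6 CPM on Collagen I. It was at 5.79, 4.10, and 3.53 CPM on fibronectin and at 4.95, 3.58, and 5.23 CPM on Geltrex™. The 6 samples on fibronectin and Geltrex™ thus lay well below the other 6, with no overlap, while the Collagen I samples spread to both sides of the control. *Actn2* fell to 23.3% of the control mean on fibronectin (log2 fold change -2.09, SE 0.20, adjusted p = 1.44e-06) and to 23.9% on Geltrex™ (-2.07, SE 0.20, adjusted p = 1.42e-06).

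*Actn3* had the highest level per kb of the 10 genes in every group, with means of 98.0, 83.5, 60.0, and 84.1 CPM per kb in the control and on Collagen I, fibronectin, and Geltrex™. Its samples were at 294, 285, and 274 CPM in the control and 240, 231, and 255 CPM on Collagen I. On fibronectin the values were 177, 173, and 172 CPM, and on Geltrex™ 249, 244, and 239 CPM. All 9 coated samples were below the 3 control samples, and those on fibronectin were the lowest. The decrease was 1.63-fold on fibronectin (log2 fold change -0.71, SE 0.07, adjusted p = 1.52e-06) and 1.17-fold on Geltrex™ (-0.22, SE 0.07, adjusted p = 0.021). The smaller difference on Geltrex™ was not called without control sample 1 (adjusted p = 0.0682) or without Geltrex™ sample 1, 2, or 3 (0.0511, 0.0834, and 0.0830), and not with no filter on low counts (0.129).

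Per kb of exon, *Actn2* therefore made up a changing share of the sum of *Actn2* and *Actn3*. The share was 4.90% ± 0.254 in the control (SD, n = 3), 6.74% ± 1.79 on Collagen I, 1.92% ± 0.467 on fibronectin, and 1.42% ± 0.277 on Geltrex™. It differed among the 4 groups in an exact permutation test over all 369600 divisions of the 12 samples (p = 0.000974, adjusted p = 0.0039 over the 4 shares tested). The samples on fibronectin (1.54% to 2.44%) and Geltrex™ (1.11% to 1.65%) lay below all control samples (4.75% to 5.20%) and all Collagen I samples (4.76% to 8.22%). A single pair of groups can reach no less than p = 0.1 in the two-sided exact test with 3 samples a side, and the 4 pairs between those sets gave that value (adjusted p = 0.4 over 24 pairs). In this exact test, Collagen I against the control gave p = 0.3 and Geltrex™ against fibronectin p = 0.2. *Actn2* and *Actn3* are close paralogs, and how reads mapping to several genes were counted is not given in the sources used here.

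**Figure D2:**
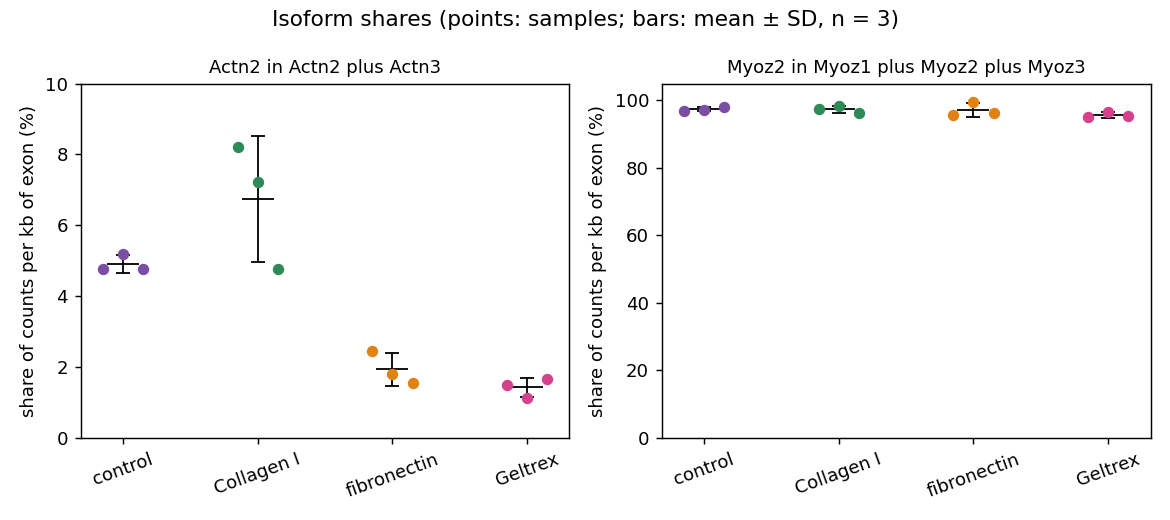
Share of counts per kb of exon (percent, linear axes) taken by Actn2 in the sum of Actn2 and Actn3 (left) and by Myoz2 in the sum of the 3 myozenin genes (right), with points for samples and bars for the mean ± SD of 3 samples in each group. The Actn2 share was at most 2.44% in the samples on fibronectin and Geltrex™ and at least 4.75% in the others, while the Myoz2 share stayed above 90% in every group.

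The promoter of *Actn2* is shown because this gene fell while its paralog changed less. The sequences printed here are the 250 bases upstream of the RefSeq start (GRCm38.p6), 5′ to 3′ on the gene's strand. Capitals mark matches to an E-box, an MCAT element (GGAATG), a MEF2 site, or a CArG box, searched on both strands. The E-box pattern CANNTG includes sites of MyoD and myogenin, but not every match is such a site. Up to 28 of the 250 bases lie inside the GENCODE gene.
Actn2 promoter, chr13:12340733-12340982 (- strand): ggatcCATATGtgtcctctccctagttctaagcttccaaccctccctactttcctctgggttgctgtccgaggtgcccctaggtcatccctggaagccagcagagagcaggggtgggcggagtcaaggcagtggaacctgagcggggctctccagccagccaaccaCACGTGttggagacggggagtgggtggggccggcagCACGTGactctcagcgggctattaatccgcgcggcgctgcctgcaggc
It held 3 E-boxes, at -245, -84, and -48, of which the latter 2 read CACGTG, and no MEF2 site or CArG box.

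The myozenins, which link α-actinin to calcineurin, were led by *Myoz2* (chr3:123006206-123035015, minus strand), the isoform of slow and cardiac muscle. *Myoz2* was at 69.4, 71.2, and 66.0 CPM in the control samples and 80.3, 68.7, and 67.8 CPM on Collagen I. On fibronectin the values were 16.2, 14.0, and 14.5 CPM, and on Geltrex™ 18.5, 14.995, and 16.9 CPM. The control and Collagen I samples overlapped, the fibronectin and Geltrex™ samples overlapped, and nothing lay between 18.5 and 66.0 CPM. The gene fell 4.61-fold on fibronectin (log2 fold change -2.21, SE 0.10, adjusted p = 1.3e-09) and 4.10-fold on Geltrex™ (-2.04, SE 0.10, adjusted p = 2.07e-09).

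*Myoz1* (chr14:20649107-20656540, minus strand), the myozenin of fast fibers, was close to the limit of detection. It had 29, 29, and 16 counts in the control samples, 27, 16, and 31 on Collagen I, 9, 1, and 8 on fibronectin, and 10, 7, and 10 on Geltrex™. The samples on fibronectin and Geltrex™ were all lower than those on the other 2 surfaces. The fitted log2 differences from the control were -2.03 (SE 0.49) on fibronectin and -1.31 (SE 0.46) on Geltrex™, and no call is read from them, since the filter kept the gene through the groups in which it was higher.

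*Myoz3*, the third family member, had 2, 3, and 2 counts in the control samples, 2, 2, and 3 on Collagen I, 3, 0, and 0 on fibronectin, and 5, 0, and 0 on Geltrex™, so that no difference was detectable at this depth. Per kb, *Myoz2* made up 97.4% ± 0.564 of the 3 genes in the control (SD, n = 3), 97.4% ± 0.990 on Collagen I, 97.2% ± 2.002 on fibronectin, and 95.7% ± 0.875 on Geltrex™. This share did not pass the exact permutation test over the 4 groups (p = 0.321, adjusted p = 0.455).

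The *Myoz2* promoter is shown as that of the predominant myozenin, with the same marks.
Myoz2 promoter, chr3:123034988-123035237 (- strand): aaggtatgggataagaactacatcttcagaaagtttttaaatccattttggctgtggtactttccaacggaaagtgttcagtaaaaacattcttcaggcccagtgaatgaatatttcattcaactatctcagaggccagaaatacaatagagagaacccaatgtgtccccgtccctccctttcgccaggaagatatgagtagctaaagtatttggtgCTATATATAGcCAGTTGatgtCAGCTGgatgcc
A MEF2 site (CTATATATAG, -33 to -24) was followed by 2 E-boxes at -22 and -12. RefSeq windows were found for 6 of the 10 genes, and *Actn3*, *Myoz1*, *Myoz3*, and *Tcap* had none.

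The titin-associated genes *Tcap* and *Csrp3* also fell on both coatings. *Tcap* (chr11:98383811-98384953, plus strand) was at 2.23, 2.05, and 1.57 CPM in the control samples and 2.86, 2.45, and 3.45 CPM on Collagen I. On fibronectin the values were 0.594, 0.419, and 0.583 CPM, and on Geltrex™ 0.769, 0.494, and 0.451 CPM. It was a gene of low level, with 10 to 80 counts per sample. Its samples on fibronectin and Geltrex™ were all below 1 CPM and all others above 1.5 CPM. The decrease was 3.63-fold on fibronectin (log2 fold change -1.86, SE 0.28, adjusted p = 0.00013) and 3.40-fold on Geltrex™ (-1.76, SE 0.28, adjusted p = 0.000168).

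*Csrp3* (chr7:48830398-48848033, minus strand), which encodes muscle LIM protein, was at 19.5, 19.6, and 15.5 CPM in the control samples and at 16.0, 13.1, and 14.5 CPM on Collagen I. It was at 5.83, 3.94, and 6.87 CPM on fibronectin and at 4.95, 5.56, and 5.55 CPM on Geltrex™. The samples on Collagen I overlapped the control, and no sample on fibronectin or Geltrex™ reached 7 CPM. The decreases were 3.28-fold on fibronectin (log2 fold change -1.71, SE 0.16, adjusted p = 1.42e-06) and 3.40-fold on Geltrex™ (-1.77, SE 0.17, adjusted p = 8.94e-07). The *Csrp3* promoter is shown because it had the most E-boxes of the 6.
Csrp3 promoter, chr7:48848052-48848301 (- strand): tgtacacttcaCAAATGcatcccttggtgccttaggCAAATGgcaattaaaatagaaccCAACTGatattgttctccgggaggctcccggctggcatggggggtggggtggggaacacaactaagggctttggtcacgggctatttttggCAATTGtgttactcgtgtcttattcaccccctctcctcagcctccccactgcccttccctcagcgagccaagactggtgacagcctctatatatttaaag
Its 4 printed E-boxes lay at -239, -214, -191, and -100, and a further one lay downstream of the start.

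The adaptors *Ldb3*, *Ankrd2*, and *Synpo2l* fell on both coatings, and each fell further on fibronectin. *Ldb3* (chr14:34526603-34588682, minus strand), whose PDZ and LIM protein holds α-actinin in the Z-disc, was at 85.6, 91.0, and 78.9 CPM in the control samples and 103, 104, and 84.8 CPM on Collagen I. On fibronectin the values were 41.2, 35.5, and 35.0 CPM, and on Geltrex™ 63.3, 65.2, and 68.6 CPM. The Geltrex™ samples lay between those on fibronectin and those in the control, without overlap on either side. The gene was at 43.7% of the control mean on fibronectin (log2 fold change -1.19, SE 0.10, adjusted p = 2.31e-07) and at 77.2% on Geltrex™ (-0.37, SE 0.09, adjusted p = 0.00613).

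*Ankrd2* (chr19:42036000-42045110, plus strand), a stretch-responsive ankyrin repeat protein of slow muscle, had the largest decrease on fibronectin of the tested Z-disc genes. It was at 35.0, 33.5, and 32.8 CPM in the control samples and 25.0, 18.8, and 20.7 CPM on Collagen I. On fibronectin the values were 6.76, 6.07, and 5.83 CPM, and on Geltrex™ 10.7, 9.23, and 11.2 CPM. The 4 groups did not overlap, and the share of all genes with such a separation was not computed. *Ankrd2* fell 5.42-fold on fibronectin (log2 fold change -2.44, SE 0.12, adjusted p = 2.28e-09) and 3.25-fold on Geltrex™ (-1.70, SE 0.12, adjusted p = 2.95e-08).

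*Synpo2l* (chr14:20658946-20668354, minus strand), an actin-associated protein of the synaptopodin family, is the neighbor of *Myoz1* on the same strand. It was at 340, 350, and 277 CPM in the control samples and 247, 225, and 214 CPM on Collagen I. On fibronectin the values were 144, 124, and 115 CPM, and on Geltrex™ 179, 170, and 186 CPM. Here, too, the 4 groups did not overlap, with the order control, Collagen I, Geltrex™, and fibronectin, again without a share over all genes to compare. The gene fell 2.52-fold on fibronectin (log2 fold change -1.33, SE 0.10, adjusted p = 1.61e-07) and 1.81-fold on Geltrex™ (-0.86, SE 0.10, adjusted p = 1.03e-05).

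The promoters of the 3 adaptors are printed together because these genes share the order of the fibronectin and Geltrex™ levels.
Ldb3 promoter, chr14:34588682-34588931 (- strand): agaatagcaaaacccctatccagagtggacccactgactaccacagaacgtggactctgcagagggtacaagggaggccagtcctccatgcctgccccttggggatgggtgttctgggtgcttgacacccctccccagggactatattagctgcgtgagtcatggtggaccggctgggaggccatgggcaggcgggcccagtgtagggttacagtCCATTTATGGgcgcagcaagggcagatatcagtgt
Ankrd2 promoter, chr19:42035777-42036026 (+ strand): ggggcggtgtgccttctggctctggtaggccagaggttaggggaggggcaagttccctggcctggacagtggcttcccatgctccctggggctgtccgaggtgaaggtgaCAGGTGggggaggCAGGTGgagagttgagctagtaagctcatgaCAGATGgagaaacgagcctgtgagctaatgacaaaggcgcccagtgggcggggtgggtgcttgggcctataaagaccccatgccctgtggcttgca
Synpo2l promoter, chr14:20668355-20668604 (- strand): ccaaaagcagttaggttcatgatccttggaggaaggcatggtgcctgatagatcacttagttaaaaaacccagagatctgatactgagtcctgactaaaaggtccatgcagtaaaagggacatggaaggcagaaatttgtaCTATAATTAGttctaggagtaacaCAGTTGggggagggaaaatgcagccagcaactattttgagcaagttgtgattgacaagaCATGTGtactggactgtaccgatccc
The *Ldb3* window had the only CArG box of the 6 (CCATTTATGG, -35 to -26) and was the only one without an E-box, *Ankrd2* had 3 E-boxes at -140, -127, and -96, and *Synpo2l* had a MEF2 site (CTATAATTAG, -109 to -100) and 2 E-boxes at -85 and -26. Over the whole windows, an E-box occurred in 5 of 6 genes, against 72.3% of all 32851 RefSeq windows of the same length. A MEF2 site occurred in 2 of 6, against 3.19% of all windows, a CArG box in 1 of 6, against 1.63%, and an MCAT element in 0 of 6, against 14.7%. The NFAT core GGAAA, not capitalized, occurred in 3 of 6, against 61.3%. No matches to different motifs overlapped, and a match describes letters in the window, not a bound site.

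The order of the levels was stable across coatings at its ends. Per kb of exon, *Actn3* and *Synpo2l* ranked first and second in every group, and *Tcap*, *Myoz1*, and *Myoz3* ranked last, in this order. In the control the genes between them were *Ankrd2* (29.7 CPM per kb), *Myoz2* (20.1), *Ldb3* (14.0), *Csrp3* (6.82), and *Actn2* (5.05). On fibronectin the order of these 5 was *Ldb3* (6.10), *Ankrd2* (5.46), *Myoz2* (4.36), *Csrp3* (2.08), and *Actn2* (1.18). Neighbors in this order did not overlap in the control, while on fibronectin the samples of *Ldb3* overlapped those of *Ankrd2*, and those of *Csrp3* overlapped those of *Actn2*. Exon lengths are those of all annotated transcripts of a gene together, so a level per kb is approximate.

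Fibronectin and Geltrex™ were then compared with each other, which separated the Z-disc genes into genes that were higher on Geltrex™ and genes with no called difference. Of the 9 tested genes, 4 were higher on Geltrex™, where 9.06% of all genes were called higher, and none was lower, where 10.3% were. These were *Ldb3* (log2 fold change 0.82, SE 0.10, adjusted p = 1.89e-05), *Ankrd2* (0.74, SE 0.13, adjusted p = 0.000624), *Actn3* (0.49, SE 0.07, adjusted p = 0.000115), and *Synpo2l* (0.48, SE 0.10, adjusted p = 0.00382), and in each the 3 Geltrex™ samples lay above the 3 fibronectin samples, as in 21.2% of all genes. None was a DEG, as 2.26% of all genes were in this direction, since the largest fold change was 1.77. The log2 differences of the other 5 were 0.03 for *Actn2* (SE 0.22, adjusted p = 0.945), 0.17 for *Myoz2* (SE 0.10, 0.261), 0.10 for *Tcap* (SE 0.33, 0.868), -0.06 for *Csrp3* (SE 0.18, 0.860), and 0.72 for *Myoz1* (SE 0.57, 0.401). The standard errors of *Tcap* and *Myoz1* were the largest of the 9, so that only large differences were detectable in them at this depth. In the same comparison, 5 of 11 tested markers of differentiated muscle cells were higher on Geltrex™ and none lower, and the part of this in the 4 genes was not tested.

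On Collagen I, 7 of the 9 tested Z-disc genes had no called difference from the control. The other 2 were lower, where 0.917% of all genes were called lower, and none was higher, where 0.2% were. *Ankrd2* was 1.57-fold lower (log2 fold change -0.65, SE 0.11, adjusted p = 0.00794), and *Synpo2l* was 1.41-fold lower (-0.50, SE 0.10, adjusted p = 0.0265), neither of them a DEG, as 0.11% of all genes were. *Tcap* was higher in all 3 Collagen I samples than in any control sample, as were 8.18% of all genes, but was not called (log2 fold change 0.57, SE 0.23, adjusted p = 0.261). *Actn3* (-0.23, SE 0.07, adjusted p = 0.111) lay below the control in all 3 samples, as did 9.15% of all genes, and DESeq2 called it (adjusted p = 0.00944). The remaining differences were 0.25 for *Actn2*, 0.19 for *Ldb3*, 0.08 for *Myoz1*, 0.07 for *Myoz2*, and -0.33 for *Csrp3*, with adjusted p between 0.339 and 0.946. The call of *Ankrd2* was lost without Collagen I sample 2 (adjusted p = 0.0526) and in a fit of only these 6 samples (0.0541). That of *Synpo2l* was lost in the latter fit (0.121), without control sample 1 (0.0653) or 2 (0.130), without Collagen I sample 2 (0.0915) or 3 (0.0697), and without Geltrex™ sample 1, 2, or 3 (0.0520, 0.0543, and 0.0508).

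Collagen I was higher than the other coatings for nearly all Z-disc genes. Against fibronectin, all 8 genes other than *Myoz1* were higher on Collagen I, where 22.1% of all genes were called higher, and 6 were DEGs, against 4.86%. *Tcap* (log2 fold change 2.44, SE 0.27, adjusted p = 4.94e-06), *Actn2* (2.34, SE 0.20, adjusted p = 3.2e-07), and *Myoz2* (2.28, SE 0.10, adjusted p = 5.94e-10) led, while *Synpo2l* (0.84) and *Actn3* (0.48) stayed under a fold change of 2. Against Geltrex™, 7 of these 8 were higher on Collagen I, where 18.2% of all genes were, and 5 were DEGs, against 4.77%. The leading genes were again *Tcap* (2.34, SE 0.27, adjusted p = 7.76e-06), *Actn2* (2.31, SE 0.20, adjusted p = 3.7e-07), and *Myoz2* (2.11, SE 0.10, adjusted p = 1.02e-09). *Actn3* was the exception, with a log2 difference of -0.01 (SE 0.07, adjusted p = 0.913). *Synpo2l* was 1.28-fold higher than on Geltrex™ (adjusted p = 0.0124), a call lost without Collagen I sample 1 (0.0584) or Geltrex™ sample 2 (0.0709). All these comparisons share samples, and the values are therefore given side by side only.

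**Figure D3:**
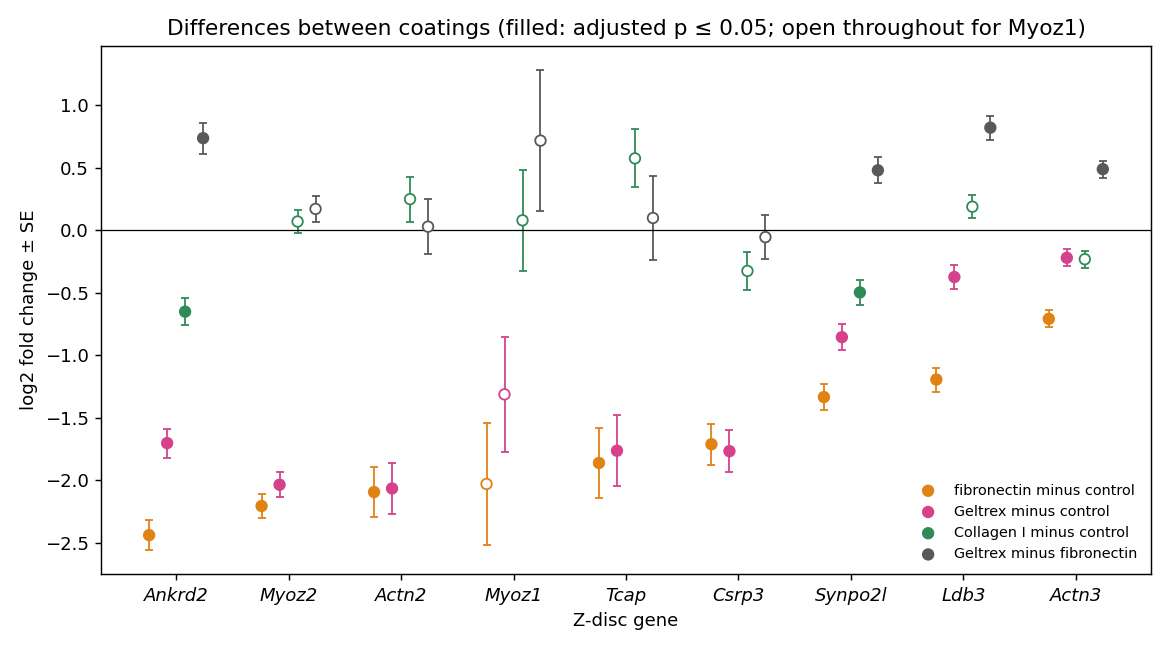
Log2 fold changes (vertical axis) of the 9 tested Z-disc genes (horizontal axis) in edgeR's fit, filled where called and open throughout for Myoz1, with bars for the standard error, for each coating against the control and for Geltrex™ against fibronectin. Against the control the values ran from -2.44 to -0.71 on fibronectin, from -2.07 to -0.22 on Geltrex™, and from -0.65 to 0.57 on Collagen I.

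Relatives of these genes were examined next, from a list of 14 genes, all of which were tested. Of these, 4 (*Synpo2*, *Pdlim3*, *Pdlim5*, and *Pdlim7*) encode Z-disc proteins themselves and are also in the wider Z-disc list, and 2 of them, *Synpo2* and *Pdlim3*, were among the 3 relatives lower on fibronectin. On fibronectin, 6 of the 14 were higher than in the control, where 17.1% of all genes were, and 3 lower, against 14.7%, with a median log2 fold change of -0.07, and on Geltrex™, 2 were higher, against 16.4%, and 3 lower, against 16.6%, with a median of -0.01. *Actn1*, a non-muscle α-actinin, was at 352 ± 1.08 CPM in the control, 441 ± 39.2 CPM on fibronectin (log2 fold change 0.33, SE 0.08, adjusted p = 0.00414), and 377 ± 8.35 CPM on Geltrex™ (0.10, SE 0.08, adjusted p = 0.338). *Actn4*, the other non-muscle α-actinin, had log2 differences of 0.03 (adjusted p = 0.750) and 0.01 (adjusted p = 0.916). In the LIM protein family, *Csrp1* and *Csrp2* rose on fibronectin (0.31, adjusted p = 0.0072, and 0.48, adjusted p = 0.00252), whereas *Csrp3* fell. Neither *Csrp1* (0.19, adjusted p = 0.0760) nor *Csrp2* (0.17, adjusted p = 0.246) was called on Geltrex™.

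*Ankrd1*, the cardiac and stress-induced relative of *Ankrd2*, differed from it on Geltrex™. It was at 804 ± 7.96 CPM in the control and 599 ± 66.7 CPM on fibronectin (log2 fold change -0.43, SE 0.09, adjusted p = 0.00296), but at 1712 ± 33.7 CPM on Geltrex™ (1.09, SE 0.10, adjusted p = 3.89e-07). On Geltrex™, *Ankrd1* therefore rose while *Ankrd2* fell. In the synaptopodin family, *Synpo2*, which encodes the Z-disc protein myopodin, fell on fibronectin (-1.05, adjusted p = 6.83e-05) and on Geltrex™ (-0.84, adjusted p = 0.000373), as *Synpo2l* did, and *Synpo* rose (0.26, adjusted p = 0.0496, and 0.46, adjusted p = 0.00163). Among the PDZ and LIM relatives of *Ldb3*, *Pdlim3* fell on both (-0.51, adjusted p = 0.000566, and -0.28, adjusted p = 0.0282), while *Pdlim1* rose on fibronectin (0.27, adjusted p = 0.0467) and fell on Geltrex™ (-0.54, adjusted p = 0.000551).

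**Figure D4:**
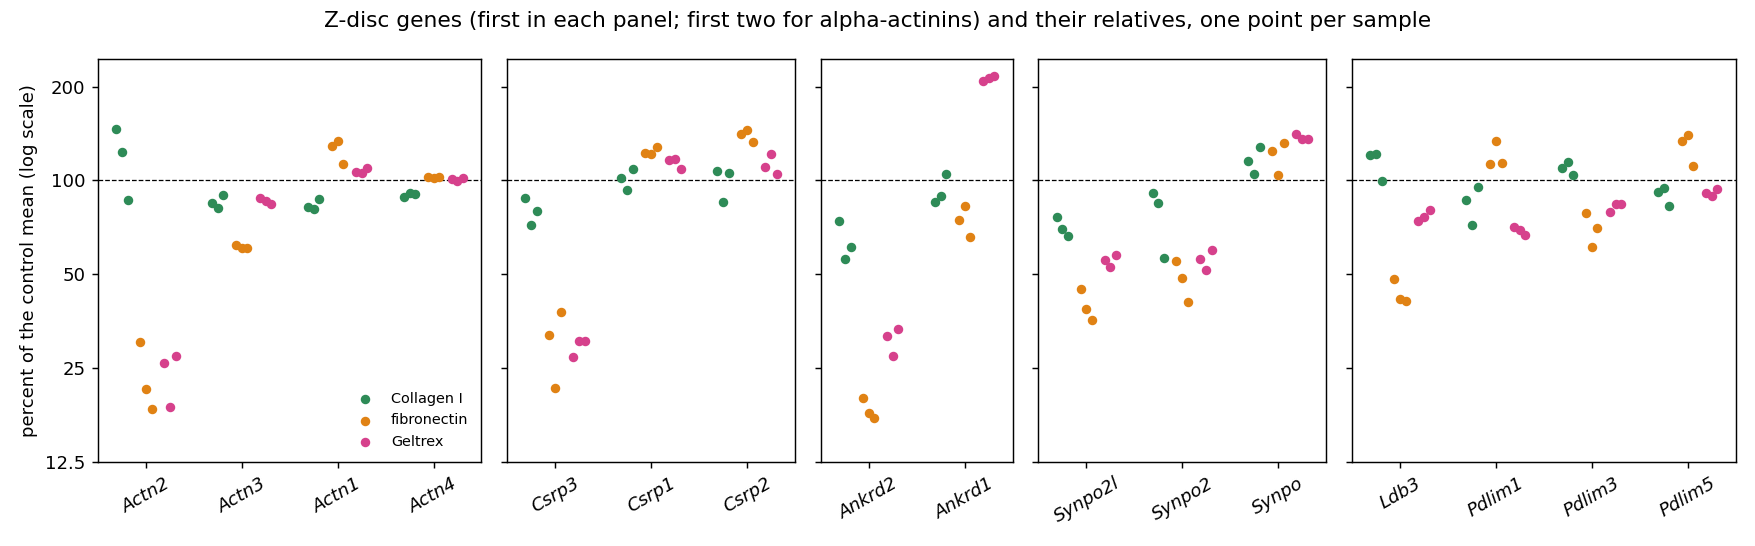
Level of Z-disc genes and relatives in each sample as a percent of the control mean (vertical log axis, dashed line at 100%), one point per sample on Collagen I, fibronectin, and Geltrex™. The points of Actn2, Csrp3, and Ankrd2 lie below 50% on fibronectin and Geltrex™, those of Actn1, Actn4, Csrp1, and Csrp2 on these coatings lie near or above the line, and Ankrd1 has a mean of 213% on Geltrex™.

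A wider list of 29 other Z-disc genes, 4 of them the relatives named above, was used to place these genes in the structure, and 28 were tested. On fibronectin, 19 of the 28 were lower than in the control (14.7% of all genes) and 1 higher (17.1%), with a median log2 fold change of -0.78, and on Geltrex™, 17 were lower (16.6% of all genes) and 1 higher (16.4%), with a median of -0.43. The largest decreases on fibronectin, given with the value on Geltrex™, were those of *Trim63*, the ubiquitin ligase MuRF1 (-2.40, adjusted p = 1.3e-08, and -2.62, adjusted p = 5.74e-09), *Smpx*, small muscle protein X-linked (-2.28 and -1.91), and *Mypn*, myopalladin (-2.21 and -1.62). The gene that rose was *Pdlim5* on fibronectin (0.36, adjusted p = 0.0116) and *Fhl3* on Geltrex™ (0.57, adjusted p = 0.00646). On Collagen I, none of the 28 was called in either direction against the control, and their median was 0.01. In that comparison only 0.917% of all genes were called lower and 0.2% higher, so few calls would appear in any list of this size. Of 10 partners on the calcineurin side of the myozenins, 9 were tested. On fibronectin 2 were higher, against 17.1% of all genes, and 2 lower, against 14.7%, with a median of 0.06, and on Geltrex™ 1 was higher, against 16.4%, and 1 lower, against 16.6%, with a median of -0.02. Those higher were *Nfatc3* (0.33, adjusted p = 0.0441) and *Rcan2* (0.28, adjusted p = 0.0162) on fibronectin and *Rcan2* (0.25, adjusted p = 0.0304) on Geltrex™. *Nfatc4*, a calcineurin-dependent transcription factor like *Nfatc3*, was lower on both (-0.77, adjusted p = 0.0437, and -1.16, adjusted p = 0.00559). On Collagen I, 1 of the 9 was lower than in the control, against 0.917% of all genes, namely *Nfatc1* (-0.50, adjusted p = 0.0164), and none was higher. The catalytic subunit *Ppp3ca* had log2 differences from the control of -0.03 on fibronectin (adjusted p = 0.796) and 0.03 on Geltrex™ (adjusted p = 0.780). *Rcan1*, a calcineurin inhibitor, fell on fibronectin (-0.39, adjusted p = 0.00321).

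**Figure D5:**
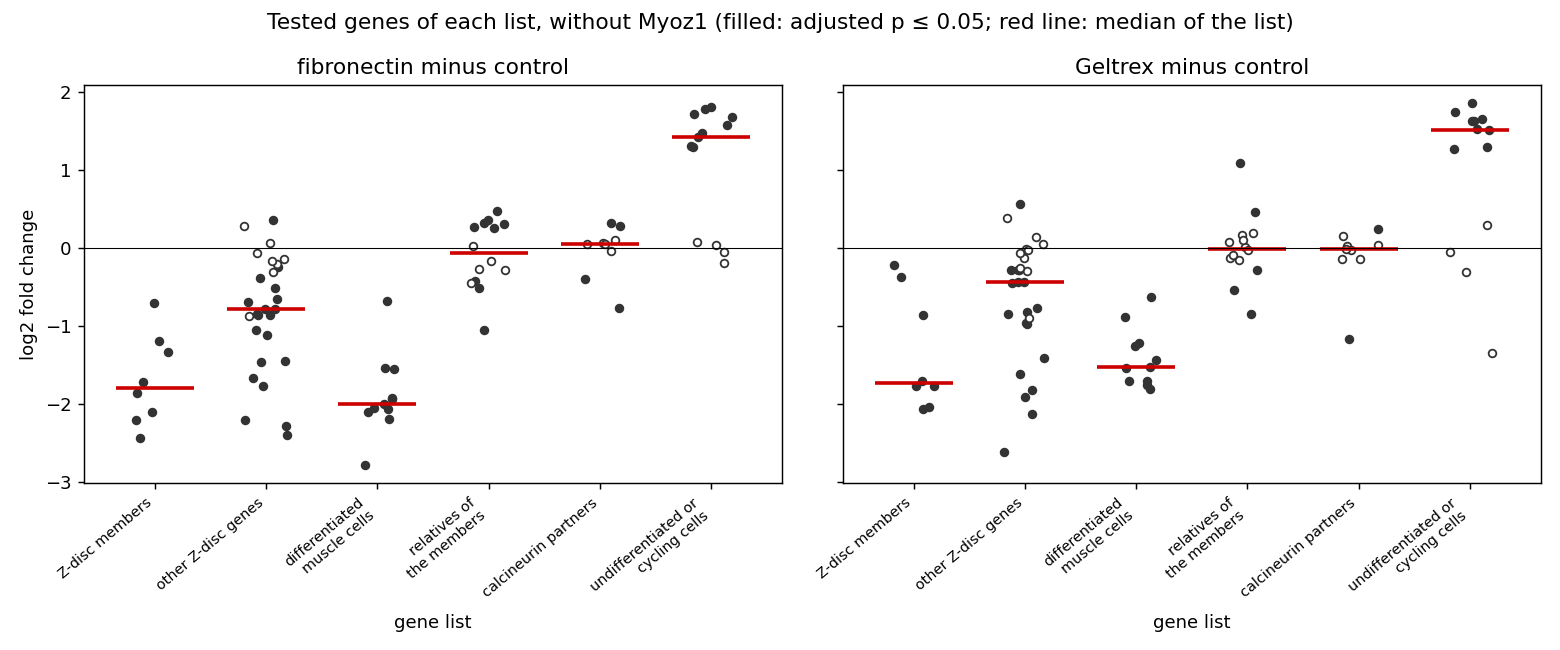
Log2 fold changes against the control (vertical axis, one point per tested gene, filled where called) on fibronectin (left) and Geltrex™ (right) for the Z-disc genes without Myoz1 and the lists of other genes, 4 of which are in both the relatives list and the list of other Z-disc genes, with red lines at the median of each list. The Z-disc genes and the markers of differentiated muscle cells lie below 0 on fibronectin and Geltrex™, with medians of -1.79 and -2.00 on fibronectin, while the relatives of the Z-disc genes lie around 0, with a median of -0.07.

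The patterns were finally described by their distance from the mean pattern of the 9 tested genes, as the root mean square difference of centered log2 CPM over the 12 samples. This mean included *Myoz1*, despite its low counts, and each of the 9 genes entered the mean it was compared with. *Csrp3* was nearest to this mean (0.224), followed by *Ankrd2* (0.289), and *Actn3* was farthest (0.579), after *Actn2* (0.444). Among 8909 other genes with a mean of at least 10 CPM, the nearest included *Tnni1* (0.0747), *Tmem38a* (0.0894), *Apobec2* (0.0994), and *Myl4* (0.123). *Tnni1*, the slow skeletal troponin I, had means of 388 CPM in the control and 390.0 CPM on Collagen I. Its mean was 114 CPM on fibronectin and 148 CPM on Geltrex™. In the test for any difference among the 4 groups, all 8 Z-disc genes other than *Myoz1* passed, as did 53.3% of all genes tested, with adjusted p from 7.67e-11 for *Myoz2* to 4.91e-06 for *Actn3*.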

How the data were processed

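The values that the authors deposited are raw counts of reads on genes in the 12 samples, made with Trimmomatic, HISAT2, and featureCounts per the labels, and nothing in them was normalized or pooled. Tool versions, the genome build, the annotation, and the handling of strand and of multiply mapped reads are not given in the sources used here. All 55536 identifiers were found in GENCODE M21 (GRCm38), used for symbols, positions, and exon lengths, and no exon of the 10 genes overlaps an exon of another gene. Promoter windows came from RefSeq (GRCm38.p6), and where a gene had 2, the one nearest the GENCODE start was used.

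The tests used edgeR 4.0.16 (R 4.3.3), with filterByExpr (minimum count 10, minimum total 15, 14499 genes kept), TMM, and 1 quasi-likelihood fit of the 4 groups with 8 residual degrees of freedom. Adjustment of p-values followed Benjamini-Hochberg across the 14499 genes, and the SE was the log2 fold change divided by the root of the F statistic. Shares were tested by exact permutation over all divisions of the samples, and scipy 1.17.1 was used to adjust these p-values. The Z-disc genes and all lists were chosen with earlier results of these data known. All 10 Z-disc genes are named, together with genes at the extremes of the lists and those needed beside them, relatives of the 10, and the 5 nearest patterns, of which 1 is not reported here. On simulated data for fibronectin minus control (14499 genes), 87% of 100 genes changed 2-fold and 97% of 100 changed 4-fold were recovered, with 11 false calls. The simulated samples were independent, each gene had the spread of the fitted trend, and all other genes were unchanged. In the real comparison 4618 genes were called, and variation shared between samples was not simulated, so these rates may not hold there.

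Alternatives were DESeq2 1.42.0, RLE scaling, no filter, at least 10 counts in every sample, only the samples compared, the replicate number of the sample titles as a block, the Geltrex™ samples summed into 1, and each sample left out in turn. Totals of 22520404 to 27351766 counts leave wide errors for *Myoz1* and *Tcap*.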

Additional observations from a re-analysis of the deposited data

How the results depend on the processing

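Leaving out 1 sample moved the number of Z-disc genes called lower on Collagen I than in the control between 0 and 2, against 2 with all samples. The number was 0 with only the samples of these groups and at the DEG threshold, and 1 with the Geltrex™ samples summed. The DEG threshold also left 0 of the 4 genes higher on Geltrex™ than on fibronectin. Over all genes, 162 were called for Collagen I minus control, and 462 with DESeq2, 581 with no filter, 40 with only the samples compared, 45 with Geltrex™ summed, and 49 to 244 with 1 sample left out. Summing Geltrex™ lowered the genes called from 4786 to 2102 against the control, from 5384 to 2167 for Collagen I minus Geltrex™, and from 2805 to 722 for Geltrex™ minus fibronectin, the last between 1738 and 3471 with 1 sample left out. With Geltrex™ as 1 sample, calls were lost for *Actn3* (adjusted p = 0.259) and *Ldb3* (0.127) against the control, *Synpo2l* on Collagen I against the control (0.101), *Synpo2l* (0.170) on Collagen I against Geltrex™, and *Synpo2l* against fibronectin (0.116), where fewer samples enter the fit.

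Signs turned only in uncalled differences: *Actn3* for Collagen I minus Geltrex™ was 0.0026 with the stricter filter on counts and -0.053 to 0.020 with 1 sample left out, and with 1 sample left out *Myoz1* and *Myoz2* for Collagen I minus control ran from -0.15 to 0.37 and from -0.013 to 0.12. For Geltrex™ minus fibronectin, *Actn2* ran from -0.12 to 0.26, *Tcap* from -0.17 to 0.24, and *Csrp3* from -0.25 to 0.13. Of the single-gene results, 611 kept direction and call with 1 sample left out, 24 lost the call, and 13 turned. With at least 10 counts in every sample, *Myoz1* was not tested. The cause of these changes was not tested. Same-numbered samples correlated at -0.154 to 0.225 over all genes and at -0.359 to 0.529 over the 10156 genes of at least 5 CPM. For Collagen I minus fibronectin all 3 pairs were above 0.1 over the latter (0.148, 0.423, and 0.529) but not over all genes (0.0473, 0.169, and 0.225), and in each of the other 5 comparisons at least 1 pair was below 0.1, so the numbers were not treated as pairs. Differently numbered samples correlated more strongly over the latter genes, from -0.661 (fibronectin 2 with control 1) to 0.666 (fibronectin 2 with control 3). Any variation shared across groups outside the title numbers was not modelled, and the main fit treats all samples as independent. With the replicate block, 6570 genes were called for Collagen I minus fibronectin, against 6523. The replicate block changed no call of a Z-disc gene and moved their log2 fold changes by at most 0.0781.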
